A study of Mus musculus with 7 samples.

Results

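The 39 genes for collagen chains are described here: every gene of the series whose symbol reads Col, a number, the letter a and a number, out of 19415 genes listed over 7 single-cell libraries. By structure, 10 of them code for fibrillar chains, 8 for basement membrane chains (types IV, XV and XVIII) and 21 for other chains, among them the chains of beaded filaments, short networks, fibril-associated collagens and transmembrane collagens. Each library's table listed 20 to 37 of the 39, and a chain that a table did not list was counted as 0 there.

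Collagen chains wind around each other into rope-like helices inside the cell, then are secreted, trimmed and crosslinked outside it. Fibrillar collagens bear tension in connective tissue, type IV collagen forms the sheet-like network under epithelia and around blood vessels, and fibril-associated collagens sit on the surface of fibrils. In the normal brain, fibrillar chains are known mainly from the meninges and the walls of larger vessels, and type IV chains from the basement membrane of capillaries.

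The cells came from mouse models of the atypical teratoid rhabdoid tumour, a childhood brain tumour driven by loss of the chromatin remodelling gene Smarcb1, and were sequenced from the 3' end of transcripts on the 10x Chromium droplet platform. All animals were Rosa26-creERT2::Smarcb1 fl/fl: a Cre recombinase that tamoxifen activates, expressed from the ubiquitous Rosa26 promoter, deletes Smarcb1, and the pregnant mothers received tamoxifen once, at 50 mg/kg and 6.5 days post coitum. The MYC subgroup had 5 libraries, called MYC1 (basal cerebrum, 12 weeks), MYC2 and MYC3 (trigeminal nerve and lateral cerebellum, 19 weeks, taken as 1 animal because their titles share a number), MYC4 (trigeminal nerve, 21 weeks) and MYC5 (basal cerebrum, 27 weeks). The SHH subgroup had SHH1 (14 weeks) and SHH2 (16 weeks), both from the striatum and subventricular zone, so that subgroup and site cannot be told apart; no tumour-free or untreated animal is among the samples used here.

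Collagen levels were read in cells with 0 UMIs (unique transcript molecules) of Ptprc, the gene for the pan-leukocyte antigen CD45. These numbered 138 to 10246 cells and 1587650 to 73380373 UMIs per library, with MYC5 the deepest. A cell with no Ptprc UMI need not lack CD45: 20.3% to 84.7% of these cells carried 0.2% or more of their UMIs in 18 genes of immune and red blood cells, with MYC4 (84.7%), MYC2 (76.0%) and SHH1 (75.0%) the highest. Levels are therefore given in the 63 to 8019 cells per library that lay outside this immune gate and outside a gate for vascular cells, called gate-negative cells below; that restriction was added after the data had been seen, and the counts of called chains, the summed levels and the class shares are also given without it. In these sums, fewer cells of a type and less RNA per cell cannot be told apart. Levels are counts per 1000000 UMIs of the summed library (CPM), which are not scaled by transcript length because each transcript is counted once at its 3' end. Smarcb1 stood at 1.70 to 27.5 CPM in gate-negative cells of MYC tumours and at 1.43 and 15.5 CPM in those of SHH tumours; the labels do not say which exons are deleted, so the value does not check the deletion.

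The start regions of 4 chains on which the results turn are shown first, each 300 bases long, from 250 bases before to 50 after the start of transcription (RefSeq, GRCm38.p6), 5' to 3' on the strand of the gene. Col1a2 (chr6:4505368-4505667, plus strand) had the largest difference between the subgroups among the chains called, Col3a1 (chr1:45311288-45311587, plus strand) was the most abundant fibrillar chain of both SHH libraries, and Col4a1 (chr8:11312777-11313076, minus strand) and Col4a2 (chr8:11312555-11312854, plus strand) are the paired chains of the basement membrane. Capitals mark the TATA box, searched as TATAAA, then the box with the letters CCAAT, and the GC box, which is searched as GGGCGG, each on either strand.
Col1a2: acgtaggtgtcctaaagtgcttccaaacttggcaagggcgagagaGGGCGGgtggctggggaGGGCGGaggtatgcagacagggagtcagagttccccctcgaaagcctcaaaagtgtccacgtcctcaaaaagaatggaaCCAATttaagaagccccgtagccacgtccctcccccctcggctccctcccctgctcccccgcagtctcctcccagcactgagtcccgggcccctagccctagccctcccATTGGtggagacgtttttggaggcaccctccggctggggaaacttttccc
Col3a1: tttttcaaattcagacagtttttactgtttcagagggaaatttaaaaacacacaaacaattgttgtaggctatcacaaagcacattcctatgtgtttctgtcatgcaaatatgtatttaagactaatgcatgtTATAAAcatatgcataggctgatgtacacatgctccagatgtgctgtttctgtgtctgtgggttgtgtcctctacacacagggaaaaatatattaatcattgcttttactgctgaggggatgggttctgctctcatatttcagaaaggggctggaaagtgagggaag
Col4a1: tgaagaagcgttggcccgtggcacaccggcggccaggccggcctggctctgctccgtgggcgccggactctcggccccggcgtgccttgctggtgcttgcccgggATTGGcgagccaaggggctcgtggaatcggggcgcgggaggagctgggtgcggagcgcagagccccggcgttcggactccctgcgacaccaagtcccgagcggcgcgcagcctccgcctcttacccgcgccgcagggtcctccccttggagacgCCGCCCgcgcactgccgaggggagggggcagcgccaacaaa
Col4a2: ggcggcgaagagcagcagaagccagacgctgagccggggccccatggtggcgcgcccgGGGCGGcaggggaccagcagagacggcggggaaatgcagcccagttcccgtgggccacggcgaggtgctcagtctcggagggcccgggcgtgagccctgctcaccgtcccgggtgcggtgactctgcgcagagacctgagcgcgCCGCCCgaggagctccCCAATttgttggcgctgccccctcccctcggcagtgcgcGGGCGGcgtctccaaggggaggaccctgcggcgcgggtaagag
The windows of Col4a1 and Col4a2 overlap by 78 bases, since the genes run away from each other from starts 21 bases apart, and the same letters appear in both on opposite strands. Col1a2 holds 2 CCAAT and 2 GC boxes and no TATAAA, while Col3a1 holds TATAAA 117 bases before its start and neither of the other motifs. A missing motif is missing from the window only. For Col1a2 the gene annotation used here places the start at base 4504814, outside the window. Of the 32851 promoters of the same length in the table, 13.6% hold TATAAA, 37.4% CCAAT and 35.7% GGGCGG, so that none of these matches is rare. Promoters were matched for 30 of the 39 chains. On the chromosome, Col3a1 and Col5a2 face each other with 24615 bases between them, and the starts of Col4a5 and Col4a6 lie 1343 bases apart.

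**Figure D1:**
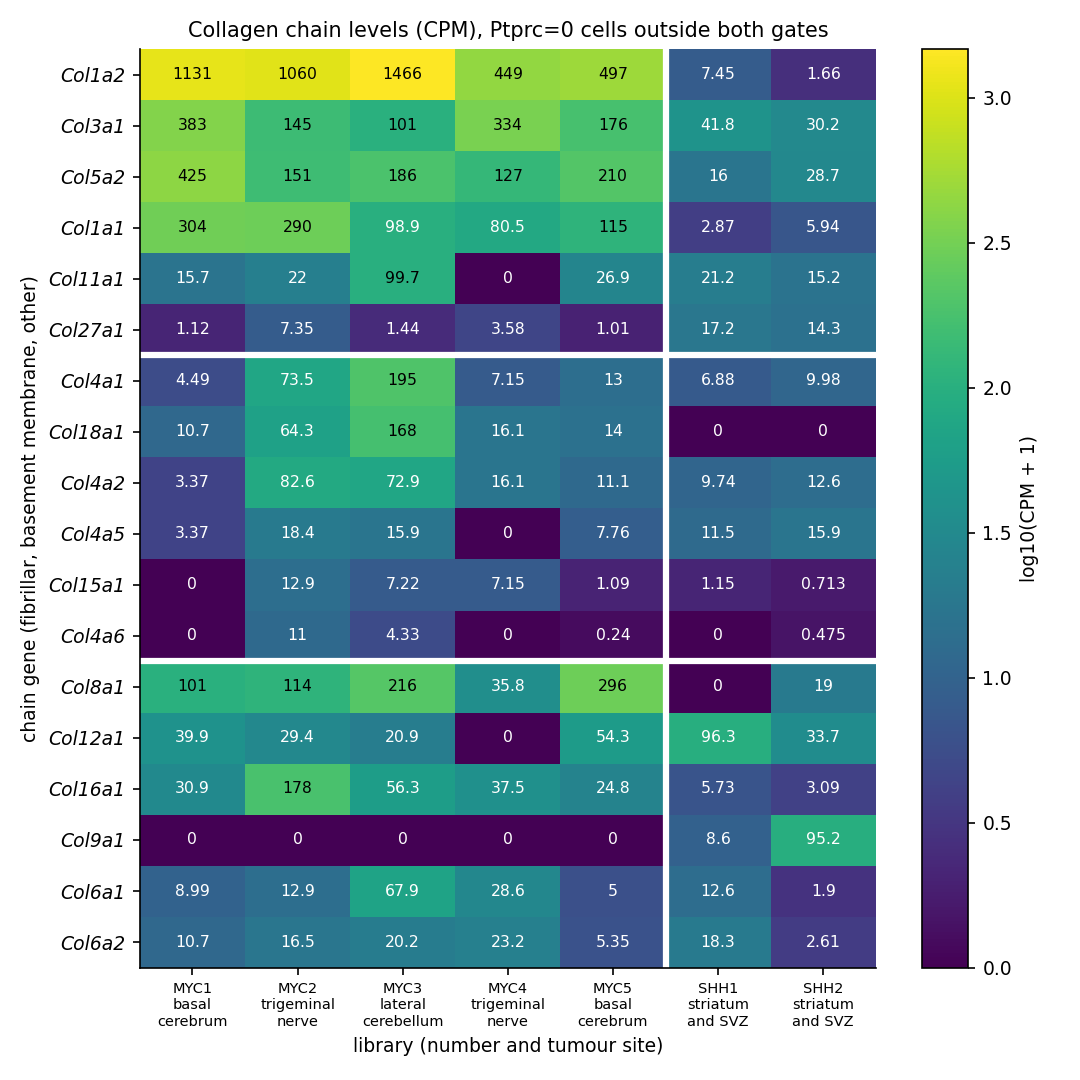
Heat map of the levels of 18 named collagen chains, in CPM, in gate-negative cells (Ptprc 0 UMIs, outside the immune and vascular gates) of each library, with chains grouped by class down the page and MYC libraries left of SHH libraries. Each cell prints the CPM and the colour runs on a log10 scale of CPM + 1; Col1a2 lies between 449 and 1466 CPM in the MYC libraries, against 7.45 and 1.66 CPM in SHH1 and SHH2.

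The first comparison asked which collagen chains differ between the subgroups. The major fibrillar chains, Col1a1, Col1a2, Col3a1 and Col5a2, and the fibril-associated chain Col16a1 were higher in gate-negative cells of MYC tumours than in those of SHH tumours, by 3.07 to 7.91 on the log2 scale. These 5 of the 22 chains that passed the low-count filter rose (edgeR quasi-likelihood test, Benjamini-Hochberg adjusted p under 0.05) and none fell. Of all 11035 genes tested, 4.25% were called, 2.13% higher and 2.12% lower. Without normalization factors the split over all genes was 188 higher and 355 lower, against 235 higher and 234 lower with them, the median of all genes moved by -0.27, and 3 chains were called, all higher. The median log2 fold change was 1.73 over the 22 chains and 0.05 over all genes, and within the classes it was 3.36 for 8 fibrillar chains, 2.33 for 5 basement membrane chains and -0.75 for 9 other chains. Animals of the groups did not overlap for 8 of the 22 chains higher in MYC (11.6% of all genes) and for 4 lower in MYC (27.1% of all genes).

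The result depends on the gates and on single animals. In all Ptprc 0 cells, edgeR called 0.331% of 12979 genes (0.0385% higher and 0.293% lower) and 0 of 23 chains. Its unadjusted p was under 0.05 for 11 of the 23 chains and for 1694 of the 12979 genes. DESeq2 called 7 chains higher and 3 lower. Counts over all genes by DESeq2, and with an animal left out, are given below with the dependence on processing. In gate-negative cells the count over all genes rose without the animal of MYC2 and MYC3 and fell without any other animal. The changes in the number of chains called are therefore not particular to collagen. The median log2 fold change of the 23 chains in these cells was 1.19, against 0.06 over all genes. Animals did not overlap there for 8 chains higher (7.65% of all genes) and 5 lower in MYC (15.8% of all genes). In gate-negative cells, no chain was called when MYC5, SHH1 or SHH2 was left out, 3 were called higher without MYC1 or without MYC4, and 6 higher and 1 lower without the animal of MYC2 and MYC3.

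Type I collagen, the main fibril of skin, bone and tendon, is built from chains of Col1a1 and Col1a2. Col1a2 stood at 1131, 1059.6, 1466, 449 and 497 CPM in MYC1 to MYC5 and at 7.45 and 1.66 CPM in SHH1 and SHH2. Every MYC library lay above both SHH libraries, the lowest of them in MYC4. Averaged over animals this was 857 ± 453 CPM in MYC (SD, n = 4) and 4.56 ± 4.09 CPM in SHH (SD, n = 2), a log2 fold change of 7.91 ± 1.02 (SE, edgeR quasi-likelihood test, adjusted p = 0.0176). In all Ptprc 0 cells it was 8.32 ± 1.15 (edgeR, adjusted p = 0.0542). Col1a1 stood at 304, 290.2, 98.9, 80.5 and 115 CPM in MYC1 to MYC5 and at 2.87 and 5.94 CPM in SHH1 and SHH2. The groups did not overlap, and Col1a1 was below Col1a2 in every MYC library. Its log2 fold change was 5.42 ± 0.79 (SE; edgeR, adjusted p = 0.0214), with means of 163 ± 98.7 CPM in MYC (SD, n = 4) and 4.402 ± 2.17 CPM in SHH (SD, n = 2).

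Type III collagen, a homotrimer of Col3a1 chains, is common in loose and reticular connective tissue. Col3a1 stood at 383, 145, 101, 334 and 176 CPM in MYC1 to MYC5 and at 41.8 and 30.2 CPM in SHH1 and SHH2. It was the most abundant fibrillar chain of both SHH libraries and yet lower there than in any MYC library. The log2 fold change was 3.07 ± 0.61 (SE; edgeR, adjusted p = 0.0459). Col5a2, a chain of type V collagen, which is known to regulate the diameter of type I fibrils, stood at 425, 151, 186, 127 and 209.6 CPM in MYC1 to MYC5 and at 16.0 and 28.7 CPM in SHH1 and SHH2. Again the groups did not overlap, and MYC1 was the highest. Its log2 fold change was 3.65 ± 0.67 (SE; edgeR, adjusted p = 0.0397).

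The rest of the fibrillar class did not pass the test. Col5a1, the partner of Col5a2 and singled out here after its values were seen, was at 3.93, 49.6, 22.4, 10.7 and 11.9 CPM in MYC1 to MYC5 and at 0 and 1.66 CPM in SHH1 and SHH2 (log2 fold change 4.06 ± 1.22; edgeR, adjusted p = 0.117). Col11a1, a minor fibrillar chain best known from cartilage, was at 15.7, 22.04, 99.7, 0 and 26.9 CPM in MYC1 to MYC5 and at 21.2 and 15.2 CPM in SHH1 and SHH2. The groups overlapped for Col11a1, with MYC3 the highest and MYC4 at 0 (1.04 ± 1.21; edgeR, adjusted p = 0.668). Col27a1, a fibrillar chain of the growth plate, ran the other way, at 1.12, 7.35, 1.44, 3.58 and 1.01 CPM in MYC1 to MYC5 and at 17.2 and 14.3 CPM in SHH1 and SHH2. Both SHH libraries lay above all MYC libraries, and the log2 fold change of -2.79 ± 0.63 missed the threshold (SE; edgeR, adjusted p = 0.0608). Col27a1 was also at 22.7 and 19.5 CPM in the Ptprc-positive cells of SHH1 and SHH2, and the part of these cells in the difference was not tested. Col2a1, the main cartilage chain, was at 12.9 CPM in MYC1, at 0 to 0.0321 CPM in the other MYC libraries, and at 36.7 and 11.4 CPM in SHH1 and SHH2; all 31 of its UMIs in MYC1 lay in 10 of 232 Ptprc 0 cells. Col2a1 was likewise chosen after its values were seen, and its log2 fold change was -2.64 ± 1.87 (SE; edgeR, adjusted p = 0.451).

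**Figure D2:**
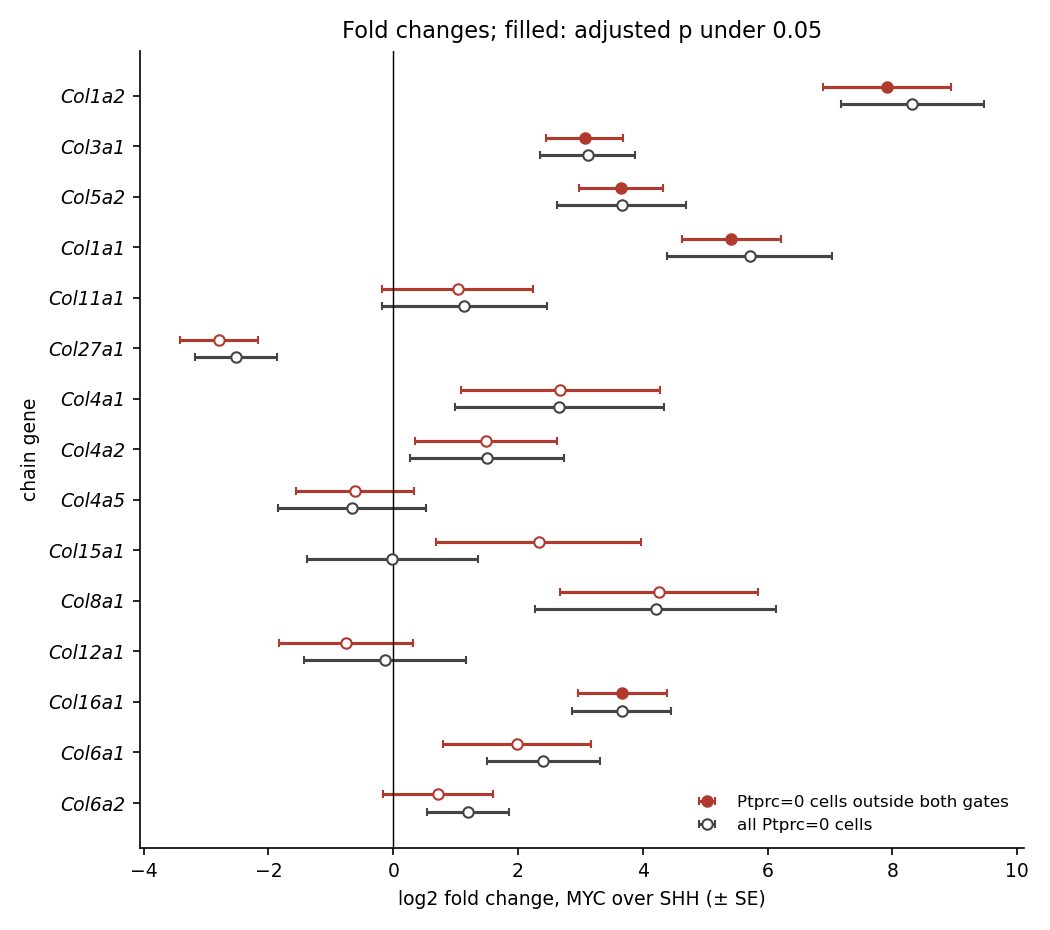
Log2 fold change of MYC over SHH for 15 named collagen chains, grouped by class, in gate-negative cells (red) and in all Ptprc 0 cells (grey), with bars of 1 SE and filled points where the adjusted p was under 0.05. Col9a1 and Col18a1 are left out because a whole group was at 0 UMIs, and Col4a6 because it did not pass the low-count filter; the filled points are Col1a1, Col1a2, Col3a1, Col5a2 and Col16a1 in gate-negative cells, all above 0.

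Among basement membrane chains, no chain was called, and the animal of MYC2 and MYC3 stood above the rest. Col4a1 and Col4a2, which together build the ubiquitous type IV network, are neighbours on opposite strands. Col4a1 stood at 4.49, 73.5, 195, 7.15 and 12.95 CPM in MYC1 to MYC5 and at 6.88 and 9.98 CPM in SHH1 and SHH2. Col4a2 stood at 3.37, 82.6, 72.9, 16.1 and 11.1 CPM in MYC1 to MYC5 and at 9.74 and 12.6 CPM in SHH1 and SHH2. For both chains MYC2 and MYC3 were high, and the other MYC libraries ranged around the SHH values. The log2 fold changes were 2.68 ± 1.59 for Col4a1 (SE; edgeR, adjusted p = 0.365) and 1.48 ± 1.14 for Col4a2 (SE; edgeR, adjusted p = 0.493). The trigeminal and the cerebellar tumour of this animal shared the high levels. Their gate-negative cells also held 569 and 1363 CPM of 6 neural progenitor and neuron markers, against 29.8 to 32.1 CPM in the other MYC libraries and 2333 and 3913 CPM in SHH1 and SHH2. Of these markers, Dcx and Elavl4 were at 0 in MYC2 and MYC3, where Stmn2 gave the most UMIs. Of 8 endothelial genes, 3 had UMIs in MYC2 (42.2 CPM in all; Cdh5, Cldn5, Kdr, Esam and Emcn at 0) and 3 in MYC3 (33.2 CPM; Cldn5, Flt1, Kdr, Esam and Emcn at 0), against 10.7 to 59.5 CPM in the other MYC libraries and 9.17 and 10.2 CPM in SHH1 and SHH2. Cells with 2 or more of these genes had been gated out, so low values are partly set by the gate. The part of these markers in the levels was not tested.

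Col18a1, whose fragment endostatin is known to inhibit vessel growth, was at 10.7, 64.3, 168, 16.1 and 14.0 CPM in MYC1 to MYC5 and at 0 UMIs in gate-negative cells of SHH1 and SHH2. It was thus found in all 5 MYC libraries and in no Ptprc 0 cell of an SHH library, with 2 UMIs in Ptprc-positive cells of SHH1. A table lists only genes seen in 3 or more barcodes, and Col18a1 is listed for 1 of the SHH libraries, so no fold is given; it shares part of its locus with Slc19a1 on the other strand. Col4a5, an X-linked type IV chain of the kidney filter and other specialised membranes, was at 3.37, 18.4, 15.9, 0 and 7.76 CPM in MYC1 to MYC5 and at 11.46 and 15.9 CPM in SHH1 and SHH2, with overlapping groups (-0.61 ± 0.95; edgeR, adjusted p = 0.762). Col15a1, a chain of the outer face of basement membranes, was at 0 to 12.9 CPM in MYC and at 1.15 and 0.713 CPM in SHH (2.33 ± 1.65; edgeR, adjusted p = 0.450). Col4a6 was at 11.02 and 4.33 CPM in MYC2 and MYC3, on 6 UMIs in each, and at 0 to 0.475 CPM in every other library. Col4a3 and Col4a4, the partners of Col4a5 in the kidney filter, reached at most 3.33 CPM in any library.

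Of the other chains, Col16a1 was called. It is a fibril-associated chain that sits on small fibrils, and stood at 30.9, 178, 56.3, 37.5 and 24.8 CPM in MYC1 to MYC5 and at 5.73 and 3.09 CPM in SHH1 and SHH2. The groups did not overlap, and MYC2 was the highest. Its log2 fold change was 3.67 ± 0.71 (SE; edgeR, adjusted p = 0.0443). Col8a1, a short-chain network collagen known from Descemet's membrane and the vessel wall, was at 101, 114, 216, 35.8 and 296 CPM in MYC1 to MYC5 and at 0 and 19.0 CPM in SHH1 and SHH2. Every MYC library was above both SHH libraries, but the estimate was wide (4.26 ± 1.58; edgeR, adjusted p = 0.177). Col8a1 was the second chain of MYC5 after Col1a2, and its partner Col8a2 reached at most 7.35 CPM.

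The fibril-associated chain Col12a1, known from tendon and ligament, did not pass the test: it stood at 39.9, 29.4, 20.9, 0 and 54.3 CPM in MYC1 to MYC5 and at 96.3 and 33.7 CPM in SHH1 and SHH2 (-0.75 ± 1.07; edgeR, adjusted p = 0.736). Type VI chains, which form beaded filaments around cells, overlapped as well. Col6a1 was at 8.99, 12.9, 67.9, 28.6 and 5.002 CPM in MYC1 to MYC5 and at 12.6 and 1.90 CPM in SHH1 and SHH2 (1.98 ± 1.18; edgeR, adjusted p = 0.366). Col6a2 was at 10.7, 16.5, 20.2, 23.2 and 5.35 CPM in MYC1 to MYC5 and at 18.3 and 2.61 CPM in SHH1 and SHH2 (0.71 ± 0.88; edgeR, adjusted p = 0.692). Col6a1 was highest in MYC3 and Col6a2 in MYC4.

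Type IX collagen coats cartilage fibrils. Its chains Col9a1 and Col9a3 ran opposite to type I, though edgeR called neither. Col9a2 overlapped between the groups, at 0.802 CPM in MYC5 and at 0.573 and 4.04 CPM in SHH1 and SHH2. Col9a1 was listed in no MYC table and stood at 8.60 and 95.2 CPM in gate-negative cells of SHH1 and SHH2. In Ptprc 0 cells of SHH2 its 405 UMIs were spread over 192 cells, and in SHH1 15 UMIs lay in 8 cells. Because unlisted genes can hide a few UMIs, no fold is given. Col9a3 was at 0, 0, 0, 1.79 and 0.417 CPM in MYC1 to MYC5 and at 16.6 and 6.41 CPM in SHH1 and SHH2. The groups did not overlap, and the log2 fold change of -4.59 ± 1.11 missed the threshold (SE; edgeR, adjusted p = 0.0722); its locus overlaps Tcfl5 on the other strand. Of the cartilage markers Acan, Sox9 and Matn1, only Sox9 had UMIs in gate-negative cells of SHH1 and SHH2 (20.6 and 26.8 CPM), with Acan and Matn1 at 0. In SHH1, 26 Ptprc 0 cells with a Col9a3 UMI held 93026 CPM of 5 choroid or ependymal markers and 18052 CPM of oligodendrocyte markers, against 1915 and 1091 CPM in the cells without one. The part of these cell types in the levels of type IX chains was not tested. The transmembrane chains Col13a1 and Col23a1 were at 0 to 7.15 CPM in MYC libraries; Col13a1 was at 13.8 and 11.2 CPM and Col23a1 at 6.31 and 10.5 CPM in SHH1 and SHH2. Neither passed edgeR's test (adjusted p = 0.365 for each). Col26a1 was read mostly in MYC5, with 495 UMIs in 280 of its Ptprc 0 cells and 3 UMIs in SHH2. Col9a2, Col9a3, Col13a1, Col23a1 and Col26a1 were singled out after their values were seen, and the members not named so far stayed at 5.51 CPM or less in every library.

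Summed over all 39 chains, collagen took 1972 ± 740 CPM of gate-negative cells in MYC animals (SD, n = 4) and 353 ± 5.29 CPM in SHH animals (SD, n = 2). In all Ptprc 0 cells the sum was 1415 ± 791 CPM in MYC animals (SD, n = 4) and 229.6 ± 107 CPM in SHH animals (SD, n = 2). The libraries came closer there: MYC4, the lowest of MYC, was at 386 CPM, against 154 and 305 CPM in SHH1 and SHH2. Fibrillar chains held 91.0%, 73.2%, 69.8%, 84.3% and 69.8% of the collagen UMIs in MYC1 to MYC5 and 40.9% and 31.5% in SHH1 and SHH2. The widest 95% Wilson interval among MYC libraries was that of MYC4 (81.4% to 86.9%), and in SHH1 it ran from 37.1% to 44.8%; such intervals cover counting error only. Other chains led in SHH, at 50.9% in SHH1 (95% Wilson interval 47.0% to 54.8%) and 56.2% in SHH2 (53.6% to 58.7%), against 8.17% to 27.0% in MYC libraries. Basement membrane chains held 0.875%, 11.2%, 16.4%, 3.88% and 3.22% in MYC1 to MYC5 and 8.19% and 12.3% in SHH1 and SHH2, so their share overlapped between the groups. In all Ptprc 0 cells the fibrillar share was 90.6%, 72.1%, 69.0%, 83.1% and 69.8% in MYC1 to MYC5 and 44.6% and 32.4% in SHH1 and SHH2, and again the groups did not overlap. No test was made of the sums or the shares.

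**Figure D3:**
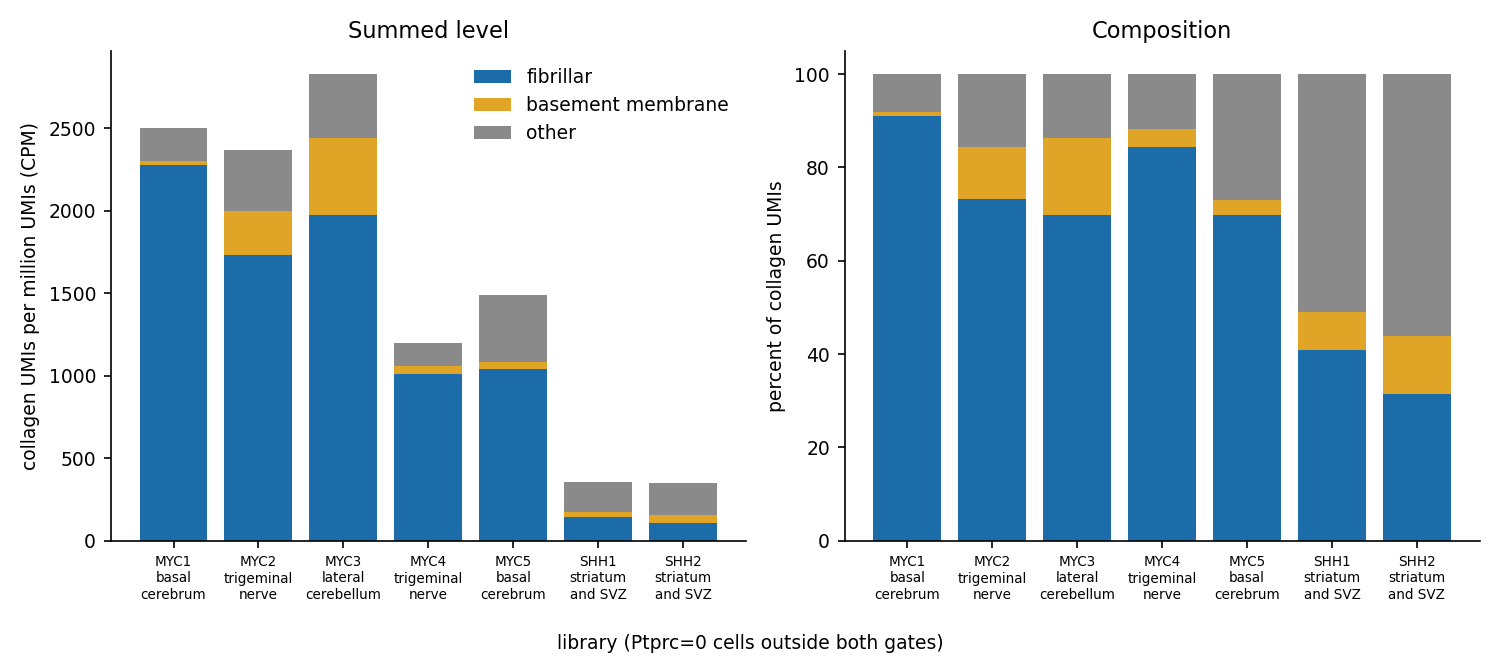
Collagen UMIs by class (fibrillar, basement membrane, other) in gate-negative cells, as CPM and as a percentage of all collagen UMIs, for each library labelled by its site, MYC libraries left of SHH libraries. Fibrillar chains hold 69.8% to 91.0% of collagen UMIs in MYC libraries, against 40.9% and 31.5% in SHH1 and SHH2.

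Marker lists of other cell types were read beside these levels. A list of 9 fibroblast and meningeal markers with no collagen in it summed to 685, 1541, 799, 649 and 1447 CPM in gate-negative cells of MYC1 to MYC5 and to 69.9 and 396 CPM in those of SHH1 and SHH2. Of the 9 markers, 7, 7, 5, 6 and 8 were found in MYC1 to MYC5 and 4 and 7 in SHH1 and SHH2, so the number found overlapped between the subgroups while the summed level did not. Lum, Dpt, Pi16 and Clec3b were at 0 in both MYC3 and SHH1, and SHH1 also had no Dcn. Ogn gave the most UMIs of the list in MYC1, MYC3, MYC4 and MYC5, and Dcn in MYC2. The 5 epithelial markers, which include Epcam and Krt18, summed to 1450, 129, 45.5, 1.79 and 573 CPM in MYC1 to MYC5, against 312 and 274 CPM in SHH1 and SHH2. Their part in the difference between subgroups was not tested. Within MYC5, 1168 gate-negative cells with 2 or more epithelial markers held 232 CPM of Col1a2, 37.4 CPM of Col1a1 and 367 CPM of Col8a1, while 2176 cells with none held 1413 CPM of Col1a2, 346 CPM of Col1a1 and 242 CPM of Col8a1. In MYC1, 87 cells with 2 or more epithelial markers held 976 CPM of Col1a2 and 55.5 CPM of Col1a1, and 27 cells with none held 1595 CPM of Col1a2 and 523 CPM of Col1a1. For comparison, Ptprc-positive cells held 191 CPM of Col1a2 in MYC5, near the level in its cells with epithelial markers, and 159 CPM in MYC1. Type I chains were lower in cells with epithelial markers in both libraries, and Col8a1 ran the opposite way in MYC5 but not in MYC1, where it was at 69.4 CPM with and 129.9 CPM without them.

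The chains were also spread differently over cells. After each cell was thinned to 1000 UMIs, Col1a2 was found in 46.3%, 66.7%, 61.7%, 21.3% and 24.6% of gate-negative cells of MYC1 to MYC5 and in 1.11% and 0.285% of those of SHH1 and SHH2. Thinning left out 5 cells of MYC4, 40 of SHH1 and 58 of SHH2. Before thinning the shares were 75.5%, 85.7%, 94.4%, 44.1% and 42.9% in MYC and 1.89% and 0.540% in SHH, at median depths of 2572 to 12195 and of 2841 and 3681 UMIs per cell. Ptprc-positive cells, which should lack type I collagen, gave 5.31%, 0%, 15.6%, 0.226% and 6.99% in MYC1 to MYC5 and 0.169% and 0% in SHH1 and SHH2 after thinning, at median depths of 1853 to 6582 UMIs in MYC and 2569.5 and 2861 UMIs in SHH. In every MYC library the share was above that in its Ptprc-positive cells. In SHH1 it was above as well, with 95% Wilson intervals of 0.509% to 2.40% in gate-negative cells and 0.0464% to 0.615% in Ptprc-positive cells, but it rests on 6 and 2 thinned cells. In SHH2 it rests on 3 thinned cells, against 0 of 228 Ptprc-positive cells. No test of these shares was made. Col8a1 was found in 20.3% of thinned gate-negative cells of MYC5 and 5.56% of its Ptprc-positive cells, and Col9a1 in 7.97% of those of SHH2 and in 0 of its 228 thinned Ptprc-positive cells. Some levels rest on few cells: among all Ptprc 0 cells, the 10 cells richest in Col1a1 held 87.9% of its UMIs in MYC1, where 1 cell had 331, and 4.52% in MYC5.

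Chains that build one molecule were compared within libraries. A type I trimer usually has more Col1a1 than Col1a2 chains. That is a count of protein chains, while UMIs count RNA, and how well each gene's 3' end was captured was not tested. Col1a2 gave more UMIs than Col1a1 in all 5 MYC libraries. The ratios were 3.72, 3.65, 14.8, 5.58 and 4.32 in MYC1 to MYC5, against 2.60 in SHH1 and 0.280 in SHH2. The ratio of MYC3 lay apart, with a 95% interval of 12.5 to 17.7 that met none of the other MYC intervals (3.06 to 7.84 over the 4). The intervals of these ratios treat UMIs as independent and cover counting error only. Among Ptprc 0 cells of MYC3, 42 of the 137 Col1a1 UMIs lay in 1 cell. In SHH1 and SHH2 the ratios rest on 13 and 7 Col1a2 UMIs, with no cell holding both chains. In MYC5, 86.3% of the 1437 gate-negative cells with a Col1a1 UMI also had a Col1a2 UMI, against 33.5% of the rest. Col4a1 and Col4a2 were near parity in most libraries, at Col4a1 to Col4a2 ratios of 1.33, 0.889, 2.67, 0.444 and 1.16 in MYC1 to MYC5 and of 0.706 and 0.792 in SHH1 and SHH2. The interval excluded 1 in MYC3 (2.12 to 3.39) and in MYC5 (1.05 to 1.29). In MYC5 Col4a1 was found in 32.5% of the 554 cells with Col4a2 and in 5.05% of the rest. Col6a1 and Col6a2 were likewise near parity, at 0.688 to 1.23 in 6 libraries, and at 3.36 in MYC3 (2.18 to 5.32). Cells with more UMIs show more of any gene, so the shared cells are a description.

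**Figure D4:**
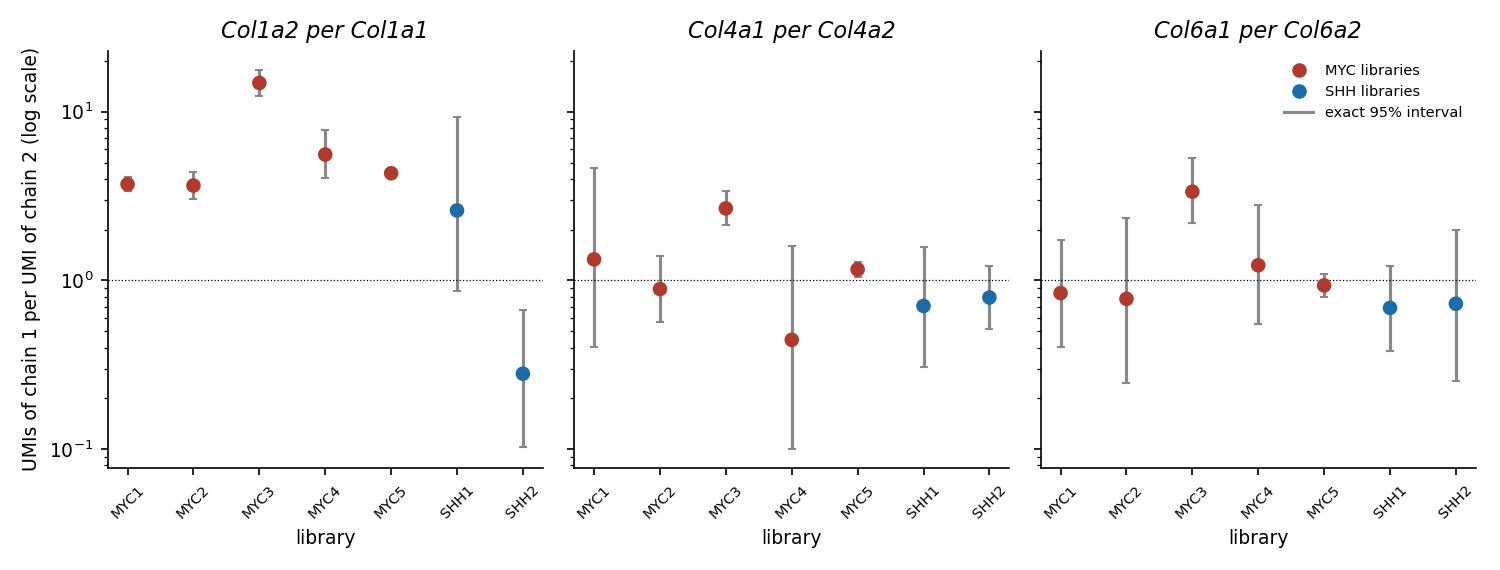
Ratio of UMIs of paired chains in gate-negative cells of each library on a log axis, with bars for the exact 95% interval from the counts, MYC libraries left of SHH libraries. MYC3 stands above the other libraries for Col1a2 over Col1a1 (14.8), Col4a1 over Col4a2 (2.67) and Col6a1 over Col6a2 (3.36).

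The site comparison was possible within MYC: trigeminal nerve (MYC2, MYC4) against basal cerebrum (MYC1, MYC5), with 15 chains tested. None was called, nor was any of the 10619 genes (0.0% called by edgeR; 1017 genes and 3 chains had an unadjusted p under 0.05), while DESeq2 called 404 genes, among them 2 chains, Col5a2 and Col8a1, as lower in the trigeminal tumours. In all Ptprc 0 cells Col5a2 was at 65.7 and 38.5 CPM in MYC2 and MYC4, against 334 and 193 CPM in MYC1 and MYC5, and the sites did not overlap (log2 fold change -2.21 ± 0.53; edgeR, adjusted p = 0.333). Col8a1 was at 36.5 and 10.9 CPM in MYC2 and MYC4, against 101 and 267 CPM in MYC1 and MYC5 (-2.86 ± 0.87; edgeR, adjusted p = 0.406). Col3a1 followed, at 49.4 and 104 CPM in MYC2 and MYC4, against 348 and 159.9 CPM in MYC1 and MYC5 (-1.63 ± 0.59; edgeR, adjusted p = 0.487). The immune gate held 76.0% and 84.7% of Ptprc 0 cells in MYC2 and MYC4, against 23.7% and 20.6% in MYC1 and MYC5. Every chain tested both in all Ptprc 0 cells and outside the gates had a higher estimate outside the gates. For Col5a2, Col8a1 and Col3a1 the estimates were thus nearer 0 outside the gates. They were -1.27 ± 0.48 for Col5a2 (edgeR, adjusted p = 0.677), -1.52 for Col8a1 and -0.28 for Col3a1. The type I chains showed little difference there, at -0.19 ± 0.61 for Col1a2 and -0.25 for Col1a1. Type IV chains leaned the other way, at 2.56 ± 1.003 for Col4a2 (edgeR, adjusted p = 0.701) and 2.02 ± 1.14 for Col4a1, with MYC2 the high library and MYC4 at 7.15 CPM of Col4a1. Other chains moved away from 0 outside the gates: Col6a1 from -0.07 to 1.55, Col5a1 from 0.69 to 1.74 and Col16a1 from 0.81 to 1.87. The cause of this shift was not tested. The lateral cerebellum had 1 tumour, MYC3, from the animal of MYC2, and was not tested; it had the highest Col1a2, Col4a1, Col18a1 and Col11a1 of all libraries.

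Ptprc 0 cells were then set against Ptprc-positive cells of the same 6 animals, with the animal as a block. Of the 11 chains tested, 9 rose in Ptprc 0 cells, where 9.76% of 10592 genes did, and none fell, where 12.7% of genes did (22.5% called in all). A chain could pass the low-count filter mainly through its Ptprc 0 sums. Col4a2 had 0 UMIs in Ptprc-positive cells of MYC1, MYC2, MYC4, SHH1 and SHH2. For a chain so low there a fall could hardly be called, so the counts and the median are partly set by the filter. Without normalization factors the split over all genes was 1723 higher and 902 lower, against 1034 higher and 1345 lower with them, and again 9 chains were higher. The median log2 fold change was 2.21 over the 11 chains and 0.01 over all genes. The chains were Col1a1 (3.32 ± 0.62), Col1a2 (2.45 ± 0.32), Col3a1 (2.89 ± 0.57), Col5a2 (2.19 ± 0.44) and Col11a1 (2.18 ± 0.41) of the fibrillar class, Col4a1 (2.21 ± 0.57) and Col4a2 (2.73 ± 0.66) of the basement membrane class, and Col8a1 (3.01 ± 0.56) and Col12a1 (1.98 ± 0.42) of the others, with adjusted p of 0.0153 to 0.0281 (edgeR quasi-likelihood test). Col1a1, Col1a2, Col3a1, Col5a2, Col4a1 and Col4a2 were higher in Ptprc 0 cells in 6 of 6 animals, and Col11a1, Col8a1 and Col12a1 in 5 of 6. Col18a1 (1.58 ± 0.55; edgeR, adjusted p = 0.0806) and Col27a1 (-0.46 ± 0.27; edgeR, adjusted p = 0.265) did not pass. Without the block no chain was called, and without MYC1 the count was 5, with Col8a1, Col12a1, Col4a1 and Col4a2 lost. The count over all genes fell without the block too, and is given below with the dependence on processing.

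Some collagen was read in Ptprc-positive cells too. Col1a2 was at 159, 7.37, 368, 13.1 and 191 CPM in those of MYC1 to MYC5 and at 0.560 and 0 CPM in those of SHH1 and SHH2. MYC3 was the highest in both classes of cells, and MYC2 and MYC4 were the lowest of the MYC libraries in both. Col27a1 was the exception among the chains tested: in SHH1 and SHH2 it stood at 20.3 and 14.4 CPM in Ptprc 0 cells, against 22.7 and 19.5 CPM in Ptprc-positive cells. Col15a1, which was not tested, was like Col27a1 higher in Ptprc 0 cells in 2 of 6 animals. Whether free RNA or joined cells carry collagen UMIs into Ptprc-positive cells was not tested.

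**Figure D5:**
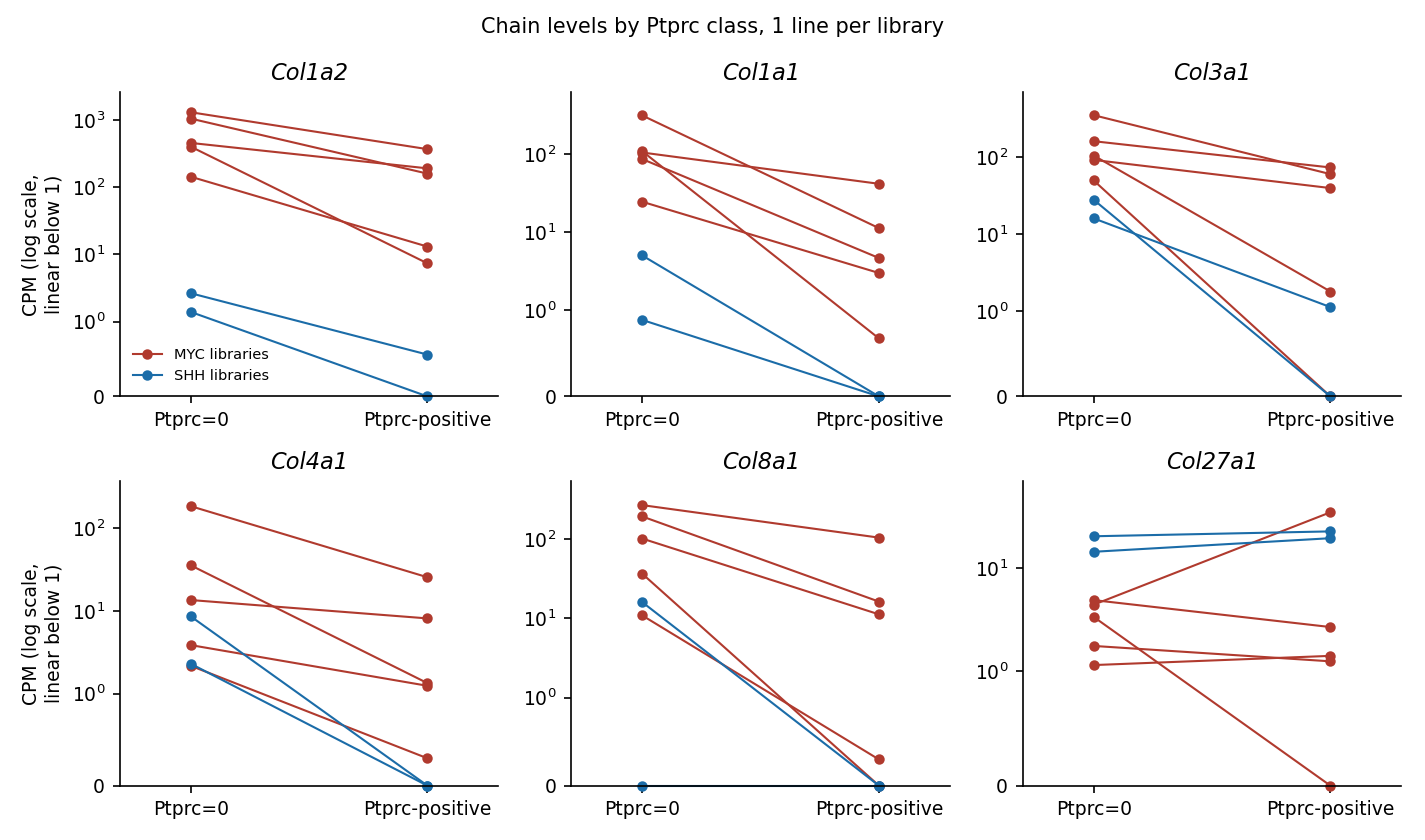
Levels of 6 chains, in CPM on a log axis that is linear below 1, in Ptprc 0 cells (left of each panel) and Ptprc-positive cells (right), with 1 line per library, MYC in red and SHH in blue. Every line of Col1a2, Col1a1, Col3a1 and Col4a1 is lower on the right, whereas Col27a1 is higher on the right in both SHH libraries, in MYC3 and, by less than 1 CPM, in MYC5.

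Vascular-gate cells were compared with the other Ptprc 0 cells in the 3 MYC animals that had 10 or more of each, since type IV chains are known from vessel walls. No chain of 14 tested was called, nor any of 9517 genes (0.0% called by edgeR; 269 genes and 0 chains had an unadjusted p under 0.05), and DESeq2 called 19 genes and no chain. Col4a1 was at 2.53, 125 and 97.3 CPM in vascular-gate cells of MYC1, of MYC2 and MYC3 and of MYC5, against 4.37, 98.4 and 11.8 CPM in their other cells. Col4a2 was at 1.27, 62.6 and 69.7 CPM in vascular-gate cells, against 2.91, 49.8 and 10.0 CPM in the others. In the animal of MYC2 and MYC3, all 22 Col4a1 UMIs of the gate came from 3 cells of MYC3 and none from the 11 cells of MYC2, of which 1 lay outside the immune gate. MYC5, with 158 vascular-gate cells, was higher in them for both chains, and MYC1 ran the other way. The log2 fold changes were 1.45 ± 0.72 for Col4a1 and 1.49 ± 0.68 for Col4a2 (edgeR, adjusted p = 0.99999 for each). The gate is a weak marker of vessels in MYC1, where all 34 of its cells had Pecam1 and 29 had Egfl7, but 1 had Cdh5 and none had Cldn5, Esam or Emcn.

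The enzymes and partners of collagen were read from 4 lists. In gate-negative cells, 3 of 19 tested genes of collagen synthesis and folding were higher in MYC and none lower, where 2.13% of all genes were higher and 4.25% called in either direction. They were the lysyl hydroxylase Plod1 (81.1 ± 25.8 CPM in MYC, SD, n = 4, and 14.1 ± 2.91 CPM in SHH, SD, n = 2; log2 fold change 2.77 ± 0.43; edgeR, adjusted p = 0.0243), the collagen chaperone Fkbp10 (117 ± 45.7 CPM in MYC and 22.5 ± 3.45 CPM in SHH; 2.64 ± 0.49; edgeR, adjusted p = 0.0405) and P4hb, a subunit of prolyl hydroxylase (263 ± 36.6 CPM in MYC and 106.5 ± 0.147 CPM in SHH; 1.57 ± 0.30; edgeR, adjusted p = 0.0419). Of 13 genes of processing and crosslinking, Lox, which starts the crosslinks of fibrils, was called higher in MYC, with a mean of 39.6 ± 11.1 CPM in MYC animals and of 0.573 ± 0.811 CPM in SHH animals (6.86 ± 1.03; edgeR, adjusted p = 0.0229). Over both SHH libraries, 3 UMIs make 0.504 CPM, so the SHH mean and the fold of Lox rest on few UMIs. None of 7 collagen receptors and none of 11 basement membrane partners was called. The median log2 fold change was 0.94 for synthesis and folding, 5.76 for processing and crosslinking, 1.88 for receptors and 2.26 for basement membrane partners. In all Ptprc 0 cells no gene of these lists was called, among 20, 15, 10 and 12 tested in the same order of lists, with medians of 0.62, 3.86, 0.31 and 1.86.

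Between Ptprc 0 and Ptprc-positive cells, 7 of 18 genes of synthesis and folding rose in Ptprc 0 cells and none fell, where 9.76% of all genes rose, 12.7% fell and 22.5% were called in all. The limit of the low-count filter given above for the chains applies to these lists too. The largest log2 fold changes were those of the collagen chaperone Serpinh1 (3.12 ± 0.46; edgeR, adjusted p = 0.0153), Fkbp10 (2.43 ± 0.40), the prolyl hydroxylase subunit P4ha3 (2.37 ± 0.50), the lysyl hydroxylase Plod2 (2.34 ± 0.33) and P3h4 (2.28 ± 0.48). Of 9 genes of processing and crosslinking, 4 rose: the crosslinking enzyme Loxl1 (3.16 ± 0.57), the fibril-binding proteoglycan Dcn (2.91 ± 0.61), the procollagen trimming enzyme Bmp1 (1.35 ± 0.33) and its enhancer Pcolce (2.71 ± 0.45; edgeR, adjusted p = 0.0155 to 0.0243 for the 4). Of 6 receptors, Lair1, an inhibitory collagen receptor of immune cells, fell (-1.91 ± 0.35; edgeR, adjusted p = 0.0155) and none rose. Of 6 basement membrane partners, the laminin chain Lamb2 (2.38 ± 0.38), the heparan sulphate proteoglycans Hspg2 (2.35 ± 0.50) and Agrn (1.57 ± 0.39) and the receptor Dag1 (1.35 ± 0.15) rose, and the laminin chain Lamb3 fell (-1.08 ± 0.25; edgeR, adjusted p = 0.0153 to 0.0259 for the 5). In the site comparison and the vascular comparison, no gene of these lists was called.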

How the data were processed

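Single-cell transcriptomes of 7 mouse tumours of 6 animals were used. The deposited tables hold raw UMI counts per gene and barcode, made by the authors with Cell Ranger 2.0.2 on mm10, per the submitters' processing notes; each lists only genes seen in 3 or more barcodes. The design text states 24199 cells; the tables hold 24433 barcodes, of which 23938 passed a filter of at least 500 UMIs, at least 200 genes and no more than 20% of UMIs from mitochondrial genes. Doublets were scored with Scrublet in scanpy 1.11.5 in libraries of 200 or more cells (MYC3, with 183, was not scored), and cells were removed from the top of the score at a rate of 0.8% per 1000 cells: 2039 in all, 1861 of them in MYC5. Libraries shared 0 to 76 barcodes pairwise.

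Members and lists were chosen with earlier results of these data known. The immune gate took cells with 0.2% or more of UMIs in 18 immune and red cell genes; the vascular gate took cells with 2 or more of 8 endothelial or of 7 mural genes. Counts were summed per animal (per library for sites) and tested with edgeR 4.0.16 in R 4.3.3 (TMM factors, filterByExpr, quasi-likelihood F test, Benjamini-Hochberg adjustment over all genes tested, threshold 0.05), with an animal block where both classes came from the same animals. The standard error is the log2 fold change divided by the root of F. The fit was tested on simulated data. Descriptive values were computed in Python 3.11.15 with scipy 1.17.1. Alternatives were DESeq2 1.42.0, RLE or no factors, no low-count filter, 1000 UMIs per barcode, cells thinned to 1000 UMIs, no doublet removal, gates, sequencing runs (MYC5 and SHH1 had 2) as a covariate and leaving out each animal. Samples of a group were taken as separate animals from their titles, except MYC2 and MYC3, taken as 1 animal. The p-values between subgroups and between sites thus measure the spread between these animals. Those of the comparisons with an animal block measure how differences within an animal vary between animals.

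Chains named with values were those called between subgroups or sites and the 6 of each class with the highest mean CPM in Ptprc 0 cells; others are said to be chosen after their values were seen. Sums held 544531 to 62377686 UMIs per library in gate-negative cells and 431909 to 18493643 in Ptprc-positive cells. Gene coordinates and overlaps are from the GENCODE M21 annotation of GRCm38. The strand setting of the counting is not given in the sources used here; Col4a1 and Col4a2, Col9a3 and Tcfl5, Col12a1 and 4930562D21Rik, and Col18a1 and Slc19a1 overlap on opposite strands.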

Additional observations from a re-analysis of the deposited data

Results flagged for a closer look

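In the animal of MYC2 and MYC3, 3 basement membrane chains stood apart from the other MYC animals. In Ptprc 0 cells, Col4a1 was at 99.7 CPM there, against 13.5 CPM in the next animal, Col18a1 at 90.4 CPM, against 12.9 CPM, and Col4a6 at 4.08 CPM, against 0.204 CPM. In gate-negative cells the same 3 chains were at 160.7, 138.9 and 6.22 CPM in this animal, against 12.95, 16.1 and 0.240 CPM in the next. What set them apart was the gap to the nearest animal, which passed Dixon's limit for 4 samples. Of 34 groups of values examined, 6 passed, all in this animal. Chance passes about 1 in 20 independent groups when values are normally distributed. The limit was applied to CPM without a log scale, and such levels are skewed, so that rate need not hold here. The flagged groups are also the same chains read in Ptprc 0 cells and again in their gate-negative subset, so the 6 are 3 chains counted in both. Both of its tumours were high in Col4a1, at 73.5 CPM in MYC2 and 195 CPM in MYC3. Col4a6 was at 11.02 CPM in MYC2 and 4.33 CPM in MYC3, on 6 UMIs in each. Its Ptprc 0 UMIs lay in 4 cells of MYC2 and 3 cells of MYC3. It is listed for 3 MYC libraries and counted as 0 in the others, and in MYC4 3 UMIs would make 5.36 CPM. The gap of Col4a6 to the other animals thus rests on few UMIs.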

How the results depend on the processing

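Comparing MYC with SHH in all Ptprc 0 cells, 43 genes were called; the count was 924 by DESeq2, 2 with sequencing runs as a covariate, 78 with libraries as replicates, 487 with the immune gate, 469 with both gates, 1 in all cells, 0 to 2 leaving out MYC1, MYC4, MYC5 or an SHH animal, and 3 without MYC2 and MYC3. No collagen chain was higher, against 7 by DESeq2, 4 with the immune gate, 5 with both gates, and 1 each with the vascular gate, libraries as replicates, 1000 UMIs per barcode and no low-count filter; none was lower, against 3 by DESeq2. Of the gate-negative results, chosen after seeing the data, the 469 calls became 1647 by DESeq2, 236 with runs as a covariate, 761 without MYC2 and MYC3 and 4 to 381 leaving out another animal. Its 5 higher chains became 3 without normalization factors, 2 with runs as a covariate and 0 to 3 leaving out an animal (6 without MYC2 and MYC3), and its 0 lower chains 3 by DESeq2 and 0 to 1 leaving out an animal. Without SHH1 or SHH2 that group is 1 sample, as is a site without 1 of its libraries, and that sample is assumed to vary like the others. Between sites, 0 calls became 404 by DESeq2 and 866 without a low-count filter, with 2 and 3 lower chains. Between Ptprc classes, which come from the same animals, 2379 calls became 1 without the animal as a replicate block, 1349 without MYC2 and MYC3 and 792 to 2402 leaving out another animal; 9 higher chains became 0 with no replicate block, 15 without a low-count filter and 5 to 11 leaving out an animal. In the vascular comparison, 0 calls became 19 by DESeq2, 60 without a low-count filter, 1 without MYC2 and MYC3 and 8 to 10 leaving out another animal; without the block it stayed at 0. The mural gate alone was not run there, since 1 animal had enough cells.

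Of the alternatives for single chains, 14 turned the sign, none of a chain called in that comparison. In Ptprc 0 cells, the log2 fold change of Col4a5 ran from -1.25 to 0.37 leaving out an animal, positive without SHH2. That of Col15a1 turned to 0.33 with libraries as replicates, 2.35 with the immune gate and 2.33 with both gates, and ran from -0.64 to 1.11 leaving out an animal, positive without MYC1, MYC5 or SHH1. That of Col12a1 turned to 0.12 in thinned cells, 0.025 in all cells and 0.064 without MYC2 and MYC3, and ran from -0.73 to 0.27 leaving out another animal, positive without MYC4 or SHH1. In gate-negative cells Col12a1 ran from -1.37 to 0.11, positive without SHH1, and Col6a2 from -0.16 to 2.61, negative without SHH2. The cause was not tested. Depth limits the Ptprc-positive sums, with as few as 431909 UMIs in a library, and the vascular sums, where the animal of MYC2 and MYC3 had 131274 and 44352 UMIs.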
